A study of Mus musculus with 2 samples.

Results

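Cassette exons, internal exons that some transcripts of a gene include and others skip, were measured in long-read RNA sequencing of the mouse adrenal gland. A member was an exon longer than 27 bases that lay between an upstream and a downstream intron, where a single longer intron running from the start of the first to the end of the second, the skipping intron, was also read. Each of the 3 introns needed at least 5 reads in each library. By this rule 637 exons in 518 genes were members, of 159762 internal exons over 27 bases seen in either library and 15703 that had a skipping intron at any depth. The members were thus selected on the read counts of their introns, and levels of inclusion are given as a description. The series held 1 group with 2 libraries, replicates 1 and 2, both from the adrenal gland of male B6CASTF1/J mice (an F1 hybrid) aged 14 days, with no treatment, engineered allele or second condition named. The labels number the libraries as biological replicates 1 and 2, each with technical replicate number 1. They also give both the same donor identifier and speak of a set of 3 males. It therefore cannot be told whether the libraries came from separate animals, and part of the spread between them may be technical.

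Alternative splicing joins different sets of exons of 1 precursor RNA. A cassette exon whose length is a multiple of 3 adds or removes amino acids without moving the downstream reading frame. Any other length moves the frame and can bring a stop codon, and a transcript with an early stop can be degraded by nonsense-mediated decay (NMD). In the untranslated part at the 5' end, the choice leaves the protein unchanged and alters the leader of the mRNA. The adrenal gland has an outer cortex, which makes steroids from cholesterol, and an inner medulla of chromaffin cells, which release catecholamines, so each value is a mean over several cell types, and a change in the share of a cell type cannot be told apart from a change of splicing within it.

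The following exons are shown because the results on single genes turn on them. All were read from the GENCODE M21 reference transcripts (mm10), 5' to 3' on the strand of the gene. The first 5 are short exons whose length is divisible by 3.
Gnas 45 (chr2:174336747-174336791, plus strand): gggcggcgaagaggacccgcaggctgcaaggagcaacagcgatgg
Acly 30 (chr11:100503160-100503189, minus strand): attcagtcccaagtccaagatccctgcaag
Ndrg2 42 (chr14:51911086-51911127, minus strand): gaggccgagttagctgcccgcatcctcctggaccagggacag
Hnrnpa2b1 36 (chr6:51467391-51467426, minus strand): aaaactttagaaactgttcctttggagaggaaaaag
Eif4h 60 (chr5:134624441-134624500, minus strand): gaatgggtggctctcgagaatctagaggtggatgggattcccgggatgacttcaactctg

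The next 5 exons belong to pairs that were compared within single reads or between related genes.
App 168 (chr16:85043576-85043743, minus strand): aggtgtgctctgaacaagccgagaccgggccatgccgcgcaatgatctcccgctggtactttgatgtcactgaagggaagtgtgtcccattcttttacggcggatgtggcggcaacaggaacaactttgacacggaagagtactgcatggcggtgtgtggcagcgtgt
App 57 (chr16:85040251-85040307, minus strand): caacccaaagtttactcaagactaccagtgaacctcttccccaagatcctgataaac
Aplp2 168 (chr9:31167561-31167728, minus strand): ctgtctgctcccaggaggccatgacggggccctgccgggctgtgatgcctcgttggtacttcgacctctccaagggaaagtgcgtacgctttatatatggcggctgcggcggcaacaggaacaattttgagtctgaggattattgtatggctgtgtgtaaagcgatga
Vegfa 72 (chr17:46022277-46022348, minus strand): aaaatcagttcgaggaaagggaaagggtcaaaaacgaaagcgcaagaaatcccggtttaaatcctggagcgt
Vegfa 132 (chr17:46020991-46021122, minus strand): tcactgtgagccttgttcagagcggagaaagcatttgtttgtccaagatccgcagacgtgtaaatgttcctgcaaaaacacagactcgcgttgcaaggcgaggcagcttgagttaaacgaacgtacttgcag

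The last 6 exons hold a stop codon when read in the frame of the annotated transcript that skips them. Each is printed from its first base through that stop, which is in capitals.
Atp5c1 37 (chr2:10056770-10056806, minus strand): ggatTAA
Myl6 45 (chr10:128491720-128491764, minus strand): catttgtgaggcatatcctgtcggggTGA
Csnk1d 63 (chr11:120964948-120965010, minus strand): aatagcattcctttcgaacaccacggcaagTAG
Camk2d 89 (chr3:126841485-126841573, plus strand): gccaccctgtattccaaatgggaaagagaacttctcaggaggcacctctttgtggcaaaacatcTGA
Rbm39 73 (chr2:156178880-156178952, minus strand): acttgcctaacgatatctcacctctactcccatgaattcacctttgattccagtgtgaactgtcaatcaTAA
Rbm39 72 (chr2:156174097-156174168, minus strand): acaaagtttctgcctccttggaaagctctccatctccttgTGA

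Replicate 1 had 964815 reads and replicate 2 had 985101 reads outside the spike-ins. All 6 adrenal cortex markers and all 6 chromaffin markers had reads, with summed levels of 39413 and 39260 CPM (counts scaled to a total of 1000000 reads) for the cortex and 9138 and 8873 CPM for chromaffin cells in replicates 1 and 2. The 8 liver markers summed to 754 CPM in replicate 1 and 15655 CPM in replicate 2, and all 8 were higher in replicate 2. The lymphoid list summed to 791 and 148 CPM, the neuron list to 214 and 66.0 CPM, and the smooth muscle and pericyte list to 245 and 104 CPM. The adipose list summed to 10007 and 9940 CPM, above the chromaffin list in both libraries, with the brown fat gene Ucp1 at 1949 and 2065 CPM. The part of these markers in the inclusion values was not tested.

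Inclusion is the percentage of reads with the exon among the reads that either hold the exon between its 2 introns or hold the skipping intron. Reads that join the exon to other outer splice sites are in neither count, so the value of an exon beside another alternative exon covers only some of the reads of the gene. Its median over the members was 50.8%, with quartiles of 26.1% and 76.9%. In replicate 1 the median was 50.0% and in replicate 2 it was 50.8%. Mean inclusion was under 20% for 125 members, from 20% to 80% for 375 and at least 80% for 137. Members under 5% had a median of 593 reads over both libraries and those above 95% had 810.5, against 59 for members between 40% and 60%. This largely follows from the rule, since the introns of the rarer form also needed at least 5 reads in each library.

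The libraries gave similar values for the same exon. The absolute difference in inclusion had a median of 4.55 percentage points over all members, and of 1.38 points over the 172 members with at least 100 reads in each library. The 95% Wilson intervals of the libraries overlapped for 628 of 637 members. Across members, Pearson's r and Spearman's rho between the libraries were both 0.95, a description over exons that share genes and libraries.

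**Figure D1:**
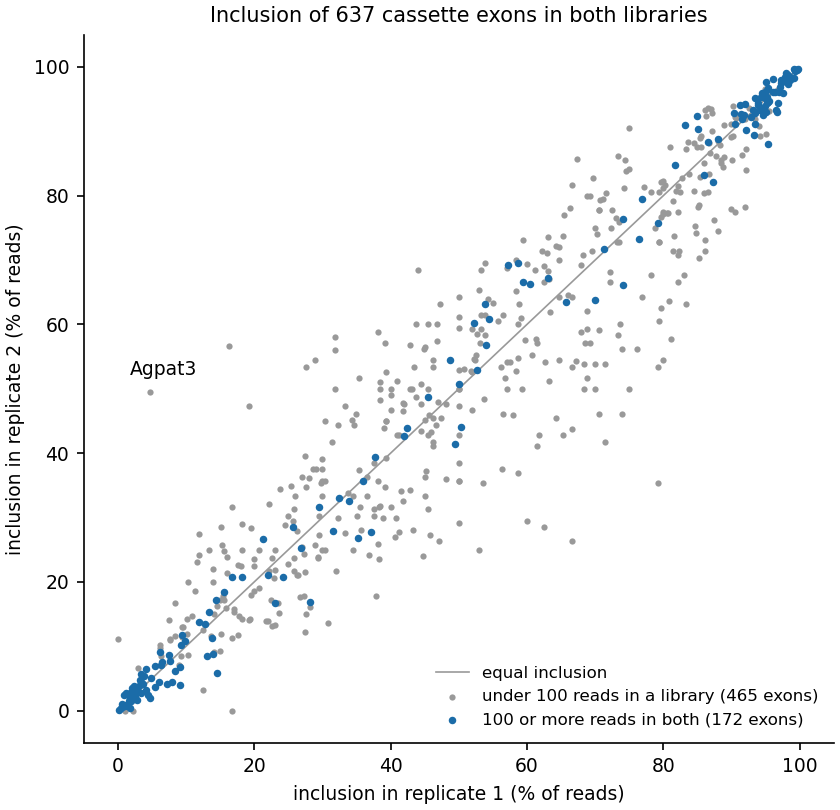
Inclusion in replicate 1 (x axis) against replicate 2 (y axis), both in percent of reads, with 1 point for each of the 637 cassette exons and the line of equal inclusion. The 172 exons with at least 100 reads in both libraries (blue) lie near the line, while shallower exons (grey) scatter more and Agpat3 stands apart at 4.71% and 49.6%.

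Only the libraries could be compared, on counting error alone. Among all 8662 exons with a skipping intron and at least 10 reads in each library, 0.0115% were called by two-sided Fisher's exact tests with Benjamini-Hochberg adjustment at 0.05. Of the 635 members tested, 1 was called. It was an 85-base exon in the 5' untranslated part of Agpat3 (chr10:78351627-78351711, minus strand), which encodes an acyltransferase of phospholipid synthesis. The exon was in 4 of 85 reads (4.71%) in replicate 1 and in 57 of 115 (49.6%) in replicate 2 (Fisher's exact test, adjusted p = 3.87e-09).

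The class of 1 intron chain differed between the libraries at this exon. The same chain of 11 exons, which includes the exon, had 57 reads in replicate 1, classed there as an incomplete splice match and so outside the rule, and 53 reads in replicate 2, classed there as a new combination of annotated sites. With the reads of every class counted, inclusion was 61 of 142 reads (43.0%) in replicate 1 and 57 of 115 (49.6%) in replicate 2, and the exon was not called (Fisher's exact test, adjusted p = 1). With that kind of chain left out of both libraries, an alternative chosen after seeing the data, it was 4.71% and 6.45% and again not called. Of 35146 chains read in both libraries, 386 (1.10%) were incomplete in one and not in the other, and 40 members held reads of such a chain.

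Without adjustment, 27 members (4.25% of those tested) and 81 of all tested exons (0.935%) had p under 0.05 in Fisher's exact test. Members needed at least 5 reads for each intron in each library, which the other tested exons lack, so these shares cannot be compared. The next smallest p belonged to ketohexokinase, Khk, the enzyme of the first step of fructose breakdown, named here after its values were seen. Its second 135-base exon was in 7 of 43 reads (16.3%) in replicate 1 and in 38 of 67 (56.7%) in replicate 2, and missed the threshold (Fisher's exact test, adjusted p = 0.107). The neighbouring exon, also of 135 bases, was in 29.4% and 23.7% of its reads. The value of each exon covers only reads without the other. Of the 58 reads of replicate 1 that decide both exons, 0 had both, 15 the first only, 7 the second only and 36 neither. Of the 82 such reads of replicate 2, the counts were 6, 9, 38 and 29. The liver markers were higher in the same library as the Khk exon, and their part in it was not tested.

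Among the 10 members of signalling genes, median inclusion was 53.6%, against 50.8% over all members, and none was called between libraries. Gnas encodes the alpha subunit of the stimulatory G protein, which links the ACTH receptor to cAMP. Its 45-base exon was in 1313 of 1607 reads (81.7%, 95% Wilson interval 79.7 to 83.5) in replicate 1 and in 1127 of 1330 (84.7%, 82.7 to 86.6) in replicate 2, so reads with the exon led in both libraries. The count pools all transcripts of the locus that use these splice sites, and the shares of its protein forms were not measured. A second Gnas member, the 2327-base exon that holds another start codon of this locus, was in 3 of 100 (3.00%) and 5 of 75 (6.67%) of the reads that join its introns or skip it. With the mean of the reads of its 2 flanking introns in place of the joined reads, its mean inclusion was 91.3%, so no level is drawn from it. Ndrg2, a stress-responsive cytoplasmic protein, had its 42-base exon in 58.6% and 69.5% of reads.

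A pair of kinases carried exons with a stop codon near even use. The 63-base exon of Csnk1d, casein kinase 1 delta, was in 48.7% and 54.5% of reads, and the 89-base exon of Camk2d, a calcium-dependent kinase, in 57.1% and 54.2%. The capitals in the printed sequences mark where each protein ends when the exon is used. Mrap, the accessory protein that carries the ACTH receptor to the cell surface, had an 85-base NMD exon in 2.87% and 1.72% of reads. In Fgfr1, a fibroblast growth factor receptor, a 267-base exon was in 79.6% and 76.7%, while in Crem, a cAMP-responsive repressor and activator, a 36-base exon was in 11 of 16 reads (68.8%) and 31 of 60 (51.7%).

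The 27 members of splicing and RNA-processing genes had a median inclusion of 55.4% and none was called between libraries. In Hnrnpa2b1, the 36-base exon that distinguishes the B1 protein from A2 was in 7.69% and 7.67% of reads. The 120-base exon of the same gene, in its glycine-rich part, was in 76.9% and 79.5%. Hnrnpa1 included a 159-base exon in 15.5% and 18.4%, and Hnrnpk kept 72-base and 44-base exons in 95.2% and 94.4% and in 98.3% and 97.3% of reads.

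Rbm39, a splicing coactivator, held 2 members that the annotation places in NMD transcripts. Its 73-base exon was in 41 of 246 reads (16.7%) in replicate 1 and in 36 of 174 (20.7%) in replicate 2. Its 72-base exon was in 5.51% and 6.86%. Both introduce a stop, at base 70 of the 73-base exon and at base 41 of the 72-base exon, counted from 1 at the 5' end of the exon.

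Genes of membrane traffic and secretion held 18 members, with a median inclusion of 65.0% and no call between libraries. App, the amyloid precursor protein, had 3 of them. The 168-base exon, which encodes the Kunitz-type protease inhibitor domain, was in 69 of 104 reads (66.3%) in replicate 1 and 50 of 64 (78.1%) in replicate 2. The 57-base exon after it was in 65.7% and 63.5%, and the 54-base exon nearer the 3' end in 71.4% and 71.7%, so all 3 were in the majority of these reads in both libraries. The value of the 168-base exon covers only reads without the 57-base exon. In all reads that decide both, the 168-base exon was in 205 of 240 (85.4%) and 136 of 151 (90.1%), and the 57-base exon in 136 of 240 (56.7%) and 86 of 151 (57.0%).

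The App relative Aplp2 had its own 168-base exon in 74.1% and 76.4% of reads, which was not tested against App. Compared position by position without gaps, the 168-base exons of App and Aplp2 were identical at 114 bases (67.9%). Aplp2 also had a 36-base exon in 6.31% and 7.07% of reads. Atp6v1h, a subunit of the vacuolar proton pump, kept a 54-base exon in 96.4% and 96.1%. Osbpl9, an oxysterol-binding protein relative, had a 39-base exon in 66.7% and 81.7%, and Bin1, a membrane-curving protein, a 72-base exon in 45.2% and 37.2%.

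The 13 members of genes of mitochondria and metabolism had a median of 44.5%, with none called. Atp5c1 encodes the gamma subunit of ATP synthase, and its 37-base exon, which ends the protein after a few bases, was in 366 of 679 reads (53.9%) in replicate 1 and 369 of 584 (63.2%) in replicate 2. The intervals of this exon do not overlap, and the adjusted p of Fisher's exact test was 1 across all exons tested. Opa1, which fuses the inner mitochondrial membrane, had its 54-base exon in 32.3% and 29.9% and its 111-base exon in 40 of 100 and 38 of 76. Mff, which recruits the fission machinery to mitochondria, had its 60-base exon in 42.9% and 34.2% of the reads between 1 pair of outer splice sites. In all reads that decide both this exon and the 159-base exon before it, it was in 65 of 109 (59.6%) and 61 of 111 (55.0%), the majority in both libraries. Immt, a scaffold of the cristae junction, had its 96-base exon in 53.6% and 48.4%.

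Ndufv3, a subunit of respiratory complex I, had a 1092-base coding exon in 37.2% and 27.8% of reads. Scarb1, the receptor through which adrenal cells take up cholesterol from high-density lipoprotein, included its 129-base exon in 95.0% and 97.6%. Slc25a3, the mitochondrial phosphate carrier, had a 125-base exon, not annotated with these introns, in 1.75% and 0.487%.

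The 8 members of translation genes had a median of 59.9%, and the 6 of cytoskeleton and adhesion genes 52.9%, with none called in either list. Eif4h, a helper of the helicase that opens mRNA leaders, had its 60-base exon in 259 of 492 reads (52.6%) and 198 of 374 (52.9%), the same within 1 point. Eef1d, an elongation factor, had a 72-base exon in 70.0% and 63.9%, and Rps24, a small-subunit ribosomal protein, a 36-base exon in 44.4% and 50.8%. Myl6, a non-muscle and smooth muscle myosin light chain, had its 45-base exon in 42.4% and 44.0%, close to even between the forms, which differ in the end of the protein. Tpm3, a tropomyosin, included a 79-base exon in 7.17% and 4.09%. Cd47, a cell-surface signal, used exons of 63 bases in 21.3% and 26.6% and of 33 bases in 68.6% and 57.1%. The membrane skeleton genes Epb41 and Epb41l3 had exons of 63 and 117 bases with mean inclusion of 65.1% and 62.6%, on 13 to 23 reads in a library.

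Over the 6 lists, 82 members were tested between libraries, of which 0 were called by Fisher's exact test with adjustment and 9 had an unadjusted p under 0.05. These 9 lay in Gnas, Scarb1, Slc25a3, Atp5c1, Ndufv3, Ndrg2, Osbpl9, Immt and Sec31a, the last of which encodes a coat protein of vesicles leaving the endoplasmic reticulum. Of them, Slc25a3, Sec31a and Scarb1 held reads of chains classed as incomplete in only 1 library. Such reads numbered 9 and 1 in replicates 1 and 2 for Slc25a3, 5 and 1 for Sec31a, and 1 and 1 for Scarb1. Their part in these differences was not tested.

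**Figure D2:**
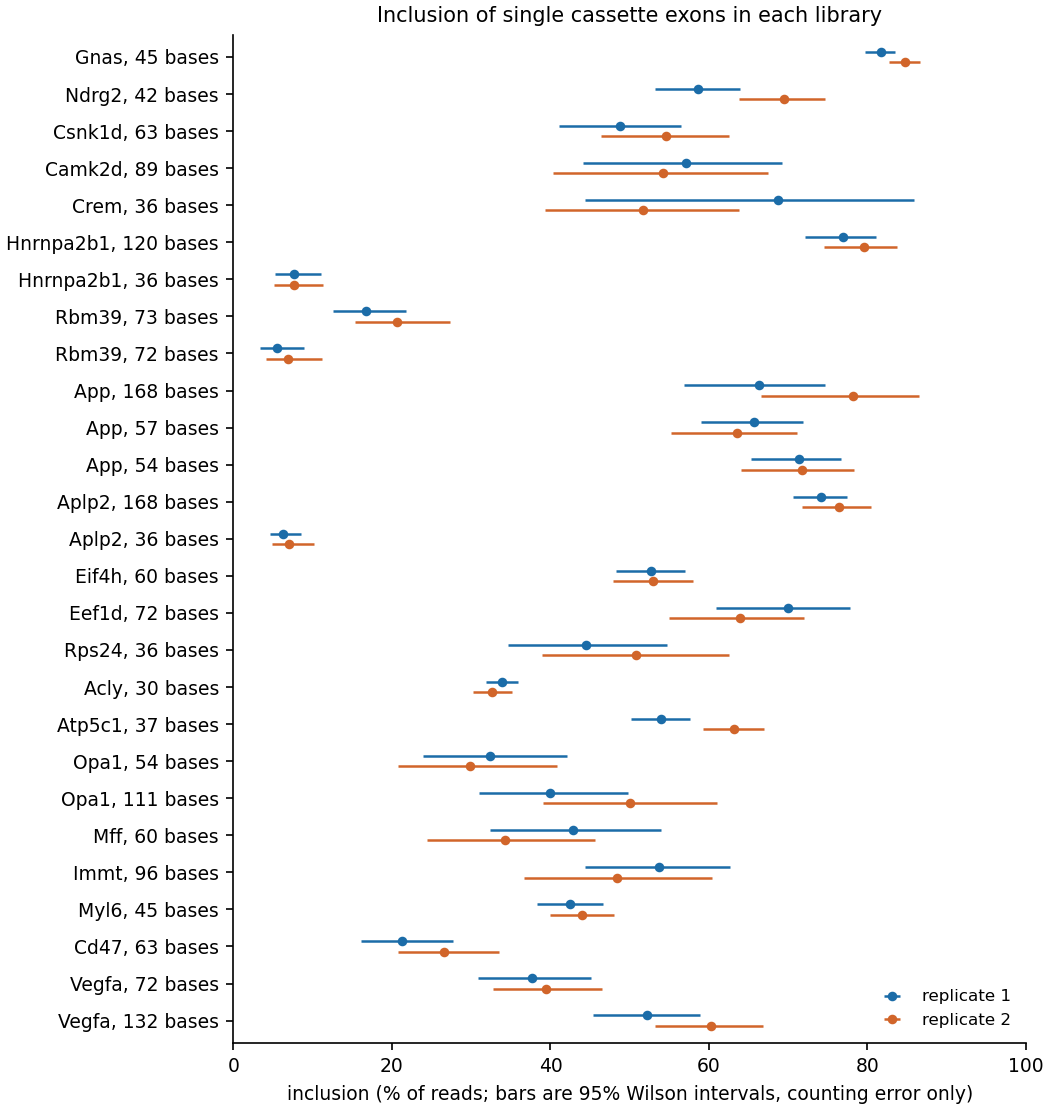
Inclusion (x axis, percent of reads) of 27 cassette exons, with replicate 1 in blue, replicate 2 in orange and 95% Wilson intervals as bars. Exons of 1 gene can lie apart, as in Hnrnpa2b1 (means of 78.2% for 120 bases and 7.68% for 36 bases). The libraries lie close for some exons, as for Eif4h (52.6% and 52.9%), and farther apart for others, as for Atp5c1 (53.9% and 63.2%). Values cover reads between 1 pair of outer splice sites.

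Genes with the deepest coverage contributed members with 1 rare form. In the steroid 21-hydroxylase gene Cyp21a1, the 90-base exon was in 6343 of 6375 reads (99.5%) in replicate 1 and 5413 of 5436 (99.6%) in replicate 2. Its 96-base exon was in 99.2% and 99.6%, and no annotated transcript skips either of them. The genome holds a near-identical pseudogene copy of this gene, so the origin of single reads is uncertain. The 200-base exon of Cyp11a1, which starts steroid synthesis by cutting the cholesterol side chain, was in 99.8% and 99.7%.

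Other deeply read members were exons used in a small share of the reads. Cyp11b1, which makes the last step to corticosterone and has a close relative in Cyp11b2, held a 107-base exon not annotated with these introns in 7 of 5228 reads (0.134%) and 7 of 3959 (0.177%). The 48-base exon of Car3, a carbonic anhydrase, was in 0.988% and 0.716%, and a 104-base exon of the lipid droplet gene Cidea in 0.853% and 0.739%, both not annotated with these introns. Kcnk3, a background potassium channel of the adrenal cortex, had another such exon in 0.556% and 1.06%. Aldoa, a glycolytic aldolase, used a 153-base exon with another start codon in 3.05% and 3.77%, and Bsg, basigin, a 348-base coding exon in 1.85% and 1.48%.

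Acly stood between these extremes despite its depth. It encodes ATP citrate lyase, which supplies acetyl-CoA for sterol and fatty acid synthesis. Its 30-base exon was in 679 of 2005 reads (33.9%, 95% Wilson interval 31.8 to 36.0) in replicate 1 and 465 of 1425 (32.6%, 30.2 to 35.1) in replicate 2, so the short form made up the majority in both. Akr1c18, the 20-alpha-hydroxysteroid dehydrogenase that breaks down progesterone, kept a 78-base exon in 95.1% and 95.3%. Acadvl, of long-chain fatty acid oxidation, kept a 66-base exon in 98.3% and 98.7%, and Dgat2, of triglyceride synthesis, a 129-base exon in 98.1% and 99.1%.

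Both the exon with its introns and the skip were annotated for 537 members. For 52 members only the exon was annotated and median inclusion was 90.7%. For 43 only the skip was annotated and median inclusion was 10.4%, and for 5 neither was. At the median, the unannotated form was the minor one.

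The place of the exon in its annotated transcript went with its level. The 367 exons wholly within the coding part had a median inclusion of 64.8%. The 94 exons of the 5' untranslated part had 38.1%, the 40 that hold the start codon 54.8% and the 30 that hold the stop codon 42.5%. Exons in NMD transcripts (32) had 22.7%, and the 48 not annotated with these introns had 16.3%. Of the 94 untranslated exons, Gnb1, the beta subunit of heterotrimeric G proteins, was the most deeply read between 40% and 60%, with a 49-base exon in 45.5% and 48.8% of reads. In the coding part, Emc10, a subunit of the complex that inserts membrane proteins, had an 87-base exon in 50.3% and 44.0%.

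**Figure D3:**
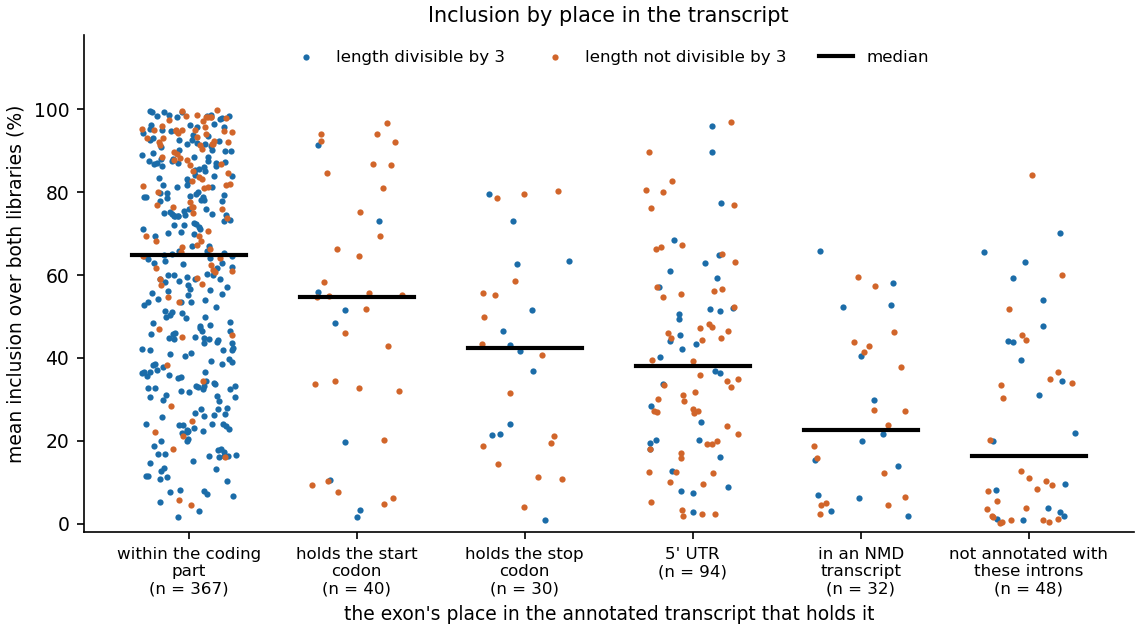
Mean inclusion over both libraries (y axis, percent) of the cassette exons by their place in the annotated transcript (x axis), with 1 point an exon, blue where its length is divisible by 3, orange where it is not, and a bar at the median. Medians fall from 64.8% for coding exons to 22.7% in NMD transcripts and 16.3% for exons not annotated with these introns, and coding exons of low inclusion are nearly all blue.

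Compared with the 73896 other internal exons that had at least 5 reads on both sides in each library, members lay more often in the 5' untranslated part (14.8% against 0.632%) and less often wholly in the coding part (57.6% against 83.6%). An exon in the 2nd position of its annotated transcript made up 32.3% of members and 11.7% of the others. These shares describe the exons and were not tested.

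Member exons were short. Their median length was 95 bases against 126 in the other internal exons, and 20.3% against 6.78% were under 60 bases. The introns beside them were longer, with medians of 1726 against 1096 bases upstream and 1869 against 975 bases downstream. Base composition was alike, with a median GC content of 51.2% in both. The exon ended in AG, the usual last bases before a 5' splice site, in 58.9% of members and 55.8% of the others.

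Lengths divisible by 3 were found in 366 of 637 members (57.5%, 95% Wilson interval 53.6 to 61.2) and in 37.8% of the other internal exons. Among coding exons the shares were 271 of 367 (73.8%) and 38.8%. The share among coding members fell as inclusion rose. It was 31 of 35 (88.6%) below 20% inclusion, 173 of 213 (81.2%) between 20% and 80%, and 67 of 119 (56.3%) above 80%. In the 5' untranslated part 34 of 94 (36.2%) were divisible by 3.

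**Figure D4:**
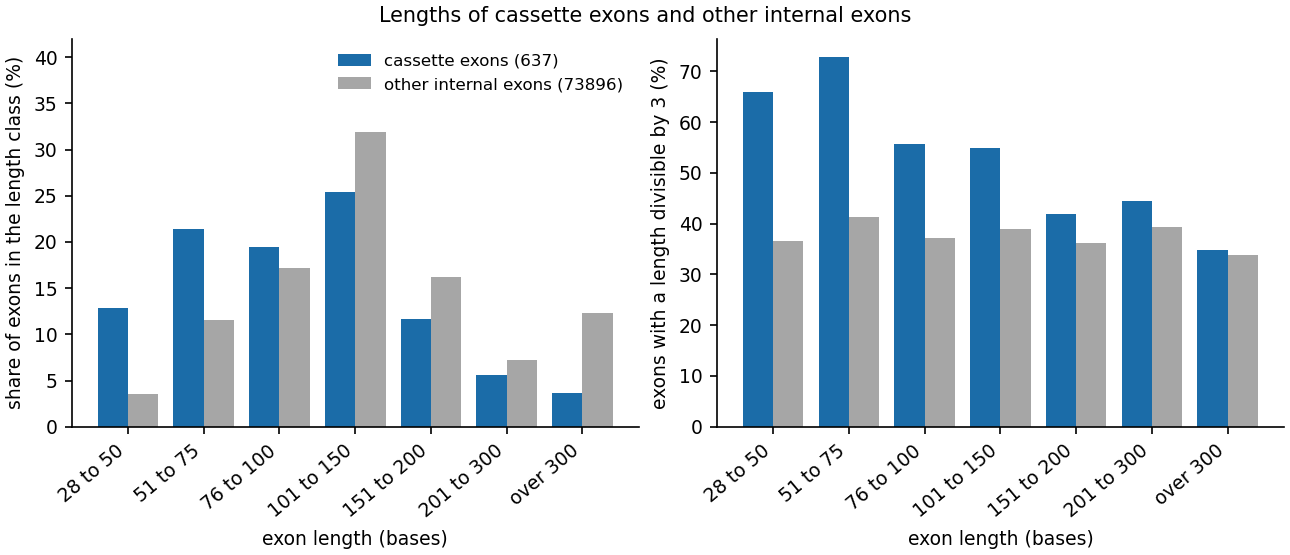
Left, the share of exons (y axis, percent) in each length class (x axis, bases) for the 637 cassette exons (blue) and 73896 other internal exons (grey). Right, the share in each class with a length divisible by 3, which is 72.8% of cassette exons of 51 to 75 bases against 41.4% of the others, and 34.8% against 33.8% above 300 bases.

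The annotated type of the transcripts followed the same lines. For 434 members both forms were protein coding, with a median inclusion of 49.0%. For 30 members the exon led to an NMD transcript and the skip to a coding one, with a median of 20.8%. For 22 members it was the skip that led to an NMD transcript, and median inclusion was 85.6%, with 0 of these 22 lengths divisible by 3. In both sets the NMD form was the minor one at the median. Eif4a2, the helicase of translation initiation, and Hnrnpk are of the second kind, with exons of 140 and 44 bases in 91.4% and 92.7% and in 98.3% and 97.3% of reads.

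For 330 members the exon could be read in the frame of an annotated coding transcript that skips it, and 72 held a stop codon in that frame. Stops were in 31 of 68 such exons below 20% inclusion, in 37 of 210 between 20% and 80%, and in 4 of 52 above. Of the 253 whose length was divisible by 3, 28 held one.

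Long reads show whether 2 cassette exons of a gene are used in the same molecule. Of 116 pairs in 69 genes, 41 have an intron that the rule counted for one exon and that touches or spans the other. Reads that chose the members enter the comparison in these 41, so they are described by their counts, and their tests are not used as results. In the other 75 pairs no such intron is shared, and 2 of the 75 (2.67%) passed in both libraries, in Rbm39 and Eif4a2. The tests were two-sided Fisher's exact tests with Benjamini-Hochberg adjustment over all 116 pairs and both libraries. The adjustment thus includes the 41 pairs, which hold the smallest p-values and so make it easier for the 75 to pass. An adjustment over the 75 alone was not made, so the 2 passes are not used as results either. Without adjustment, 3 of the 75 pairs had p under 0.05 in both libraries. Of all pairs, 18 (15.5%) in 14 genes passed, 15 used together and 3 apart, and 16 of the 18 were among the 41.

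In replicate 1, the Rbm39 72-base NMD exon was in 4 of 40 reads with the earlier 73-base exon and 2 of 206 without. In replicate 2 it was in 12 of 40 and 2 of 138, so its share was higher with the 73-base exon in both libraries. Fisher's exact tests gave unadjusted p = 0.00715 and 2.5e-07, and adjusted p = 0.0379 and 2.53e-06. In replicate 1, the Eif4a2 107-base exon was in 2 of 146 reads with the 140-base exon and in 3 of 7 without it. In replicate 2 it was in 4 of 141 and 3 of 7, so its share was lower with the 140-base exon in both libraries. Fisher's exact tests gave unadjusted p = 0.000574 and 0.00213, and adjusted p = 0.00392 and 0.0137. Only 7 of these reads in each library lacked the 140-base exon. A 111-base member with the same start as the 107-base exon did not pass with the 140-base exon (Fisher's exact tests, adjusted p = 0.282 and 0.316). It was in 8.28% of reads with the 140-base exon and 33.3% without it in replicate 1, and in 9.27% and 33.3% in replicate 2.

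In Plpp1, a lipid phosphate phosphatase of the cell surface, exons of 155 and 152 bases were used apart. Replicate 1 had 97 reads with the first only, 205 with the second only, 10 with both and 14 with neither, and replicate 2 had 99, 183, 8 and 9. The second exon was in 9.35% of reads with the first and in 93.6% of reads without it in replicate 1, and in 7.48% and 95.3% in replicate 2. Most reads therefore had exactly 1 of the exons. Their inclusion values (4.19% and 3.16% for the first, 94.4% and 95.3% for the second) count only reads between 1 pair of outer splice sites and do not show this. In all reads that decide both, the first was in 32.8% and 35.8% and the second in 66.0% and 63.9%.

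In Flot2, flotillin of membrane rafts, the downstream of its 91-base exons was in 48.5% of reads with the upstream one and 96.8% of reads without it in replicate 1, and in 35.7% and 99.2% in replicate 2.

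Vegfa, the endothelial growth factor, makes forms that differ in how they bind heparin and the matrix. Its 72-base exon occurred almost only together with the 132-base exon that follows it. Replicate 1 had 66 reads with both, 3 with the first only, 108 with the second only and 99 with neither, and replicate 2 had 75, 2, 115 and 76. The second exon was in 95.7% and 97.4% of reads with the first, against 52.2% and 60.2% of reads without it.

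In App the 57-base exon was never read without the 168-base exon. Both were in 136 reads of replicate 1 and 86 of replicate 2, the 168-base exon alone in 69 and 50, the 57-base exon alone in 0 and 0, and neither in 35 and 15. The form with both was the most frequent in each library and the form without the inhibitor domain the least frequent of the 3 read.

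In Fgfr2, a relative of Fgfr1, the 78-base exon was in 21 of 21 reads with the 267-base exon in each library, and in 19 of 44 and 17 of 34 reads without it. In Mff the 60-base exon was in 30 of 30 and 32 of 34 reads with the 159-base exon before it and in 35 of 79 and 29 of 77 without. The other pairs used together among the 18 lay in Snrk and Tmpo (3 each), 4833439L19Rik, Mapkap1, Kars and Csad, and all of these share an intron with the rule.

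**Figure D5:**
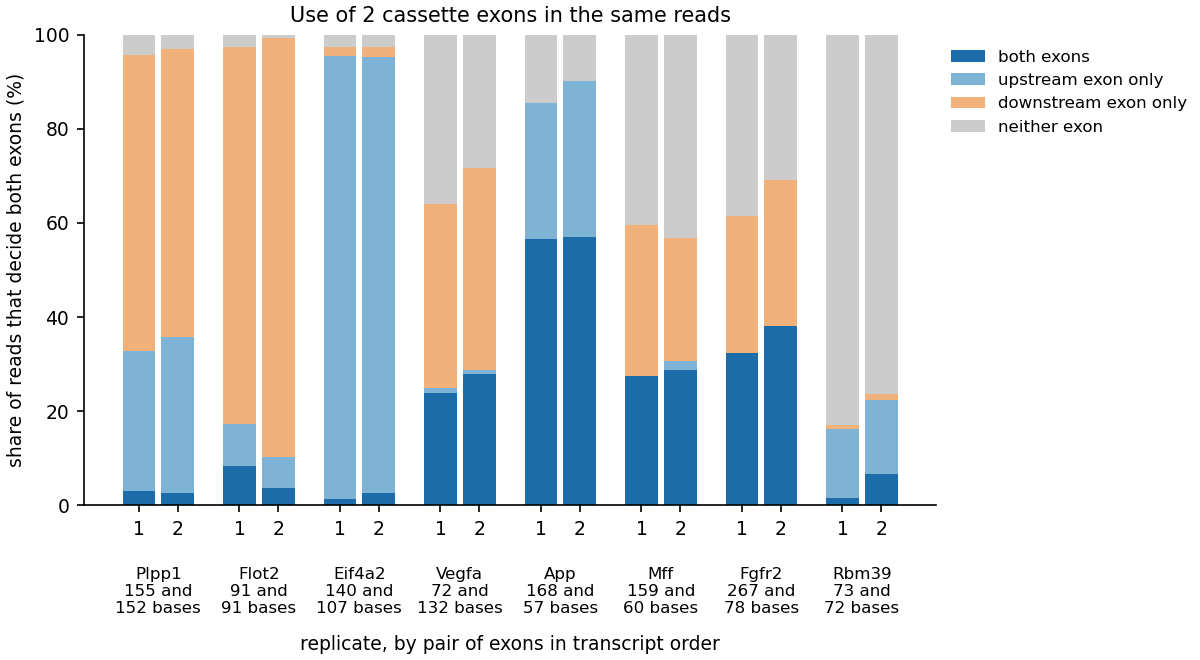
Reads that decide both exons of a pair (y axis, percent), for 8 pairs in both libraries (x axis, exons in transcript order), split into both exons, only the upstream one, only the downstream one and neither. Plpp1 shows few reads with both, App has no read with the downstream exon only, and Fgfr2 none with the upstream exon only.

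Reads classed as incomplete splice matches, parts of an annotated chain, were outside the rule and were compared with the full-splice reads of the same exon. The full-splice reads are those the rule selected on, so each member had to hold both forms there but not in the incomplete reads. The calls are therefore described by their counts and not used as results. Of 46 members with at least 10 incomplete reads in each library, 4 (8.70%) were called in both libraries (Fisher's exact tests with Benjamini-Hochberg adjustment). The class depends on which chains are annotated, and its part in these differences was not tested. The median difference in inclusion over the 46 members, incomplete minus full, was -0.743 points.

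The largest was in Eif4g2, a translation initiation factor. Its 114-base exon was in 98.6% and 98.4% of full-splice reads and in 23 of 179 (12.8%) and 27 of 151 (17.9%) incomplete reads. Dhcr7, the last enzyme of cholesterol synthesis, had a 169-base untranslated exon in 64.7% and 70.0% of full-splice reads and in 0 of 303 and 0 of 236 incomplete reads, counts that allow a share of up to 0.990% and 1.27%. The 45-base exon of Gnas was in 103 of 103 and 110 of 114 incomplete reads (100% and 96.5%), above its full-splice values. Atp5j, a coupling factor of ATP synthase, had a 55-base untranslated exon in 14.4% and 17.2% of full-splice and 4.32% and 4.82% of incomplete reads.

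Genes with several members were few: 93 had more than 1, and 67 members overlapped another. Ktn1, kinectin, and Slmap, a tail-anchored membrane protein, each had 5. Those of Ktn1 were 69 to 110 bases long. At the short end were 29-base exons of Sf3b3 (10.1% and 11.9%), a splicing factor, and Dhx30 (11.9% and 24.2%), an RNA helicase, and 30-base exons of Acly and of Ppfibp1 (11.6% and 23.1%).

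At the long end, some members were single exons formed where an intron was kept. The 5325-base exon of Mff runs from the start of its 159-base to the end of its 60-base exon and was in 1 of 45 and 0 of 48 reads, and the 1358-base exon of Vegfa spans its 72-base and 132-base exons in 1 of 100 and 0 of 76. The 1801-base exon of Cryzl2 was in 1 of 6 and 0 of 6. Such exons passed because each of their introns also occurs in other models, and with the mean of both flanking introns their mean inclusion was 50.3% (Mff), 61.5% (Vegfa) and 88.1% (Cryzl2). In all, 18 members had fewer than 5 reads that join both introns in a library, and 4 had none in a library.

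At the threshold, 131 members had exactly 5 reads for their rarest intron. Just inside, Cox6b1, a subunit of cytochrome oxidase, had a 101-base exon skipped in 5 of 1507 and 7 of 1629 reads, Etfa, of electron transfer from fatty acid oxidation, a 147-base exon skipped in 7 of 1122 and 5 of 945, and Cyp21a1 a 104-base exon included in 12 of 44 and 5 of 28. The last overlaps the 90-base exon, whose 6343 and 5413 reads are outside these counts, and with the mean of both flanking introns its mean inclusion was 99.1%. Just outside were 3 exons of Cyp11a1 with 4 reads for a skip in 1 library, of 158, 1205 and 79 bases and with mean inclusion of 99.9%, 90.9% and 99.9%.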

How the data were processed

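The deposited tables hold raw read counts of transcript models, which the authors did not normalize, with an annotation file for each library. Per the file headers and labels, reads were placed on mm10 with GENCODE M21 and models carry TALON classes. The aligner is not given in the sources used here.

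Introns came from multi-exon models classed as known, NIC (annotated splice sites newly combined) or NNC (an unannotated splice site), of annotated genes (incomplete splice matches were used only where named), and reads were summed per intron and per pair of introns in a row. Where several outer pairs qualified, the one with the most reads stood for the exon. Tests were Fisher's exact tests, two-sided, with Benjamini-Hochberg adjustment at 0.05, on at least 10 reads in each library (Python 3.11.15, scipy 1.17.1). They were also run on simulated reads, drawn without selection by the rule and without differences of class. The simulation therefore does not bear on either of those limits. Wilson intervals (95%) and a limit of 3 counts for a count of 0 cover counting error only, since reads carry no molecular identifiers in these counts. CPM are counts per 1000000 reads without spike-ins.

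Members and lists were chosen with earlier results of these data known. Named exons were those of most reads, from 40% to 60%, below 20%, without annotation and at the threshold, the shortest and longest, those called between libraries, the 6 called pairs of most reads, and members of the 6 function lists. Other named exons (Khk, Sec31a, Ktn1, Slmap, further called pairs and the calls in incomplete reads) were chosen after their values were seen. Exon sequences, frames and places came from the reference transcripts. Bases inside introns, splice site dinucleotides included, were not used here. The exon of 1 gene named by this rule is not reported here.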

Additional observations from a re-analysis of the deposited data

How the results depend on the processing

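No paired analysis was possible because the series holds 1 group. The number of members, 637, was 1161 with a minimum of 3 reads, 271 with 10 and 290 with known models only, and ranged from 826 to 1054 when 1 library was left out (1054 without replicate 2). With incomplete splice matches added it was 705, all 637 included. Median inclusion, 50.8%, was 56.7% with the mean of both flanking introns in place of joined reads, 47.1% with a minimum of 10 reads, and between 50.0% and 50.8% when 1 library was left out. The single exon called between libraries, Agpat3, was lost (0 called) with incomplete splice matches added and also with chains classed as incomplete in either library left out. It was called with no minimum, a minimum of 20 reads, the mean of both introns or a pooled z test. The share divisible by 3 was 62.4% with a minimum of 10 reads and 73.8% over coding exons, and 55.4% with either library left out. Called pairs numbered 18 or 19 under every alternative on both libraries, the 18 among them each time, and 22 to 24 in a single library. Of the 18, 16 share introns with the rule, and the other 2 passed in an adjustment that included such pairs. These counts are therefore no test of association within reads. Calls in incomplete reads were 4 to 5, and these too are no test, since the full-splice reads chose the members. Of 79 named exons, 11 moved by more than 10 points with the mean of both introns. These were Gnas 2327 bases (4.83% to 91.3%), Cryzl2 (8.33% to 88.1%), Cyp21a1 104 bases (22.6% to 99.1%), Vegfa 1358 bases (0.50% to 61.5%), Mff 5325 bases (1.11% to 50.3%) and 60 bases (38.6% to 50.3%), the downstream Flot2 exon (42.9% to 86.3%), 4833439L19Rik 107 bases (46.4% to 86.4%), Plpp1 155 bases (3.67% to 22.6%), App 168 bases (72.2% to 83.3%) and Eif4a2 107 bases (3.98% to 14.0%). With incomplete matches added, 2 moved, Agpat3 (27.1% to 46.3%) and Eif4g2 114 bases (98.5% to 78.3%). Depth limits the differences that could be seen: the median member had 61 and 50 reads.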
